A study of Apis mellifera with 12 samples.

Results

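Queen brains were compared with forager brains in bulk RNA-seq, in which the RNA of whole dissected brains was sequenced without separating the cells. The members were chosen by their caste label, not by a measured value, and make up 4 of the 12 samples of the series, 2 queen and 2 forager libraries, each made from 5 pooled adult brains. Queens had been reared artificially, and their mating was by artificial insemination. Foragers are the workers that collect food outside the hive, and a pollen load marked a bee as one. A pair of nurse libraries, from workers seen entering cells to feed larvae, served only to show whether a difference set queens or foragers apart. Nurses and foragers were taken from 1 colony, whereas no source used here gives the colony of the queens or the age of any bee. Caste, rearing and mating changed together between queens and foragers and cannot be told apart, and whether the colony also differed is unknown. No genotype other than *Apis mellifera* and no drug treatment was given for any group.

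Queens and workers of the honeybee develop from the same kind of female egg, and the diet of the larva directs development toward one caste or the other. The queen lays eggs, which draw on yolk proteins that the fat body makes and releases into the hemolymph. Workers are largely sterile and change tasks with age from nursing inside the hive to foraging. Nurses make royal jelly proteins in the hypopharyngeal glands, which lie in the head beside the brain. Foragers turn nectar into honey with carbohydrate-splitting enzymes of the same glands. Juvenile hormone, insulin-like peptides and vitellogenin are linked to these changes in task. Because the brain lies among fat body, glands and muscle in the head capsule, genes of these tissues were examined along with genes of neurons and glia.

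Libraries held between 13135057 and 14323281 expected counts. The 9 major royal jelly protein genes took 0.00811% and 0.00862% of the counts in queens, against 1.51% and 9.79% in foragers, so the second forager library carried more of this signal than the first. Levels are given as CPM, counts scaled to a common library total after correction with TMM factors, and they are not divided by gene length. They are therefore compared between libraries and not between genes. In bulk RNA, fewer cells of a type and less RNA per cell cannot be told apart. Among the defining markers of the brain, *elav* (LOC410689), which marks neurons, had 22.9 and 11.6 CPM in queen libraries, against 37.7 and 44.5 CPM in forager libraries, and *repo* (LOC410151), which marks glia, had 287 and 200.3 CPM in queen libraries, against 214 and 376 CPM in forager libraries. Both were present in every library, and neither passed the threshold between the groups (*elav* log2 fold change -1.25, SE 0.34, adjusted p = 0.0333 and *repo* log2 fold change -0.28, SE 0.30, adjusted p = 0.53). The alternative tool DESeq2 called *elav* lower in queens, with an adjusted p of 0.00403. Kenyon cell genes of the mushroom body (5 tested), hemocyte genes (3) and muscle genes (12) gave no call in either direction. Their summed levels were 1798 and 1541 CPM in queens against 1458 and 1344 CPM in foragers for Kenyon cell genes. The largest part of this sum came from 1 member, *ced6* (LOC408480), with 1085 and 917 CPM in queens against 699 and 661 CPM in foragers. The median log2 fold change of the 5 Kenyon cell genes was -0.20, so the sum does not stand for the list. For hemocyte genes the summed levels were 1185 and 1119 CPM in queens against 798 and 917 CPM in foragers. For muscle genes they were 818 and 596 CPM in queens against 983 and 982 CPM in foragers.

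Of 9932 genes tested, 824 (8.3%) passed the threshold, for which the adjusted p had to be below 0.01 and the size of the log2 fold change above 1. Of these, 582 were higher in queens (5.86% of the genes tested) and 242 were lower (2.44%). The counts of calls in gene lists below are to be read beside these shares. The higher genes also changed by more. The median size of the log2 fold change was 2.30 among the 582 genes and 1.37 among the 242, and 196 and 40 of them changed by more than 3 on this scale. The median over all genes tested was -0.0074, so the scaling had centred the comparison. Together the 582 genes held 220986 and 241383 CPM in queens, against 26731 and 28644 CPM in foragers. The 242 genes held 23664 and 20001 CPM in queens, against 114622 and 218987 CPM in foragers, and the second forager library was again the higher one. With 2 libraries a group, single libraries weighed heavily. In 67.8% of all genes tested the 2 queen and the 2 forager libraries did not overlap, so separation alone was common. It was present in all 582 higher and all 242 lower genes, and so adds nothing to a call. The count of calls was 382 without the second queen library (335 higher and 47 lower), 331 without the first forager library and 334 without the second. Without the first queen library it was 621. A call that held without each of the 6 bulk libraries in turn was found for 253 genes, 216 of them higher in queens. In every fit with 1 library left out, the lone library of a group was assumed to vary like the other groups.

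**Figure D1:**
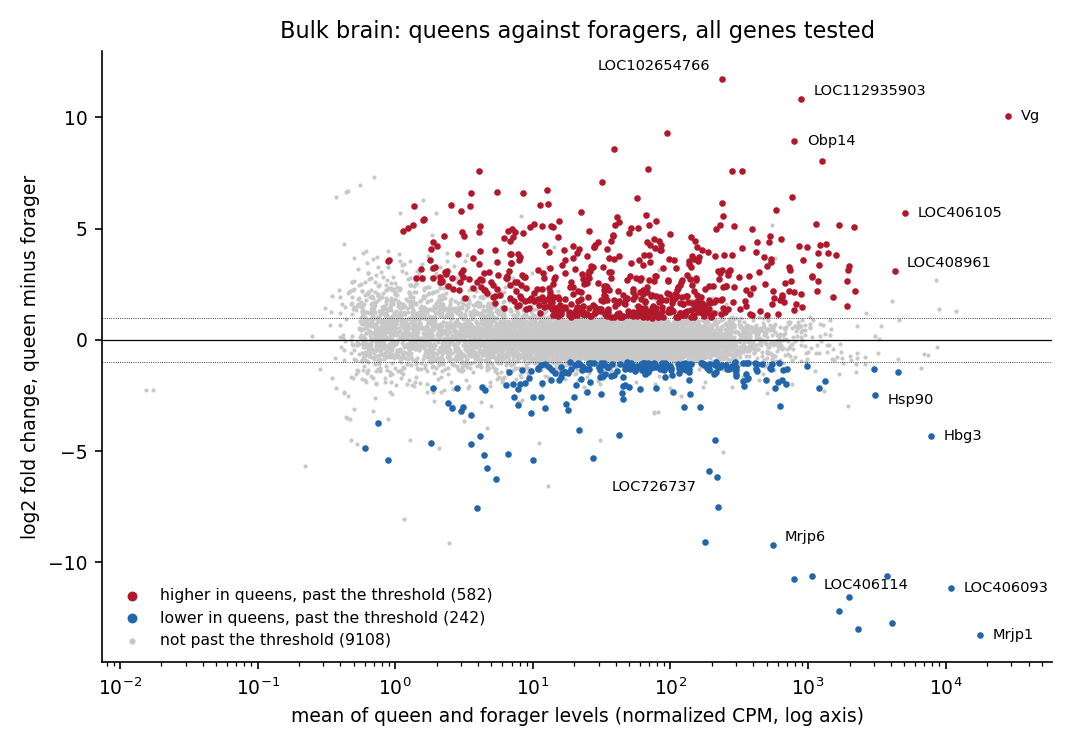
Each point is 1 of the 9932 genes tested, with the mean of its queen and forager levels on the horizontal axis (normalized CPM, log axis) and its log2 fold change, queen minus forager, on the vertical axis. The 582 genes past the threshold above 0 (red) reach from the weakest to the strongest signals, with *Vg* at the far right, and 6 royal jelly genes are among the 242 below 0 (blue).

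Vitellogenin led the genes of egg yolk, storage and lipid transport. *Vg* (linkage group 4, 5029485 to 5035661 of the Amel_HAv3.1 assembly), the yolk precursor that the fat body secretes into the hemolymph, had 60889.5 and 53244 CPM in queen libraries, against 43.3 and 63.5 CPM in forager libraries. The lowest queen library lay far above the highest forager library, and the difference passed the threshold (log2 fold change 10.06, SE 1.15, adjusted p = 0.00139). Nurses held 87.4 and 601 CPM, between the groups but on the side of foragers. *Hex70a*, a hexamerin that stores amino acids in the hemolymph, had 181 and 363 CPM in queen libraries, against 7.86 and 14.3 CPM in forager libraries (log2 fold change 4.62, SE 0.76, adjusted p = 0.00584). Nurses held 83.1 and 363 CPM of *Hex70a*, closer to queens than to foragers. Nurses passed the threshold neither against queens (adjusted p = 0.789) nor against foragers (adjusted p = 0.106) in this gene. The apolipophorin gene LOC408961, whose products carry lipid through the hemolymph, had 7323 and 7879.8 CPM in queen libraries, against 889.6 and 885 CPM in forager libraries, so that its libraries of each group lay close together (log2 fold change 3.10, SE 0.24, adjusted p = 0.00026). The opposite direction was seen for *Fabp*, a fatty acid binding protein, with 516 and 359.6 CPM in queen libraries, against 2053 and 1836 CPM in forager libraries (log2 fold change -2.15, SE 0.26, adjusted p = 0.00166). Of the 9 genes of this list, 3 were higher in queens, 1 was lower and 5 did not pass, with a median log2 fold change of 1.32 beside -0.0074 over all genes. The other hexamerin genes of the list did not pass: *HEX70b* had 31 and 47.5 CPM in queens and 35.9 and 30.1 CPM in foragers, *Hex70c* had 1.29 and 1.43 CPM in queens and 0.307 and 1.39 CPM in foragers, and *Hex110* had 10.2 and 10.5 CPM in queens and 12.5 and 12.3 CPM in foragers. The call did not hold for *Vg* (without forager 1 or forager 2, adjusted p up to 0.0186), *Hex70a* (without queen 2, forager 1 or forager 2, adjusted p up to 0.046) and *Fabp* (without queen 2 or forager 1, adjusted p up to 0.0123).

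The 12 genes furthest above foragers in queens, among those with a mean of at least 10 CPM in queens, had at most 11.5 CPM in foragers apart from *Vg*. LOC102654766 (linkage group 3, 783462 to 786931) had 368 and 586 CPM in queen libraries, against 0.246 and 0 CPM in forager libraries, where the forager values stand for 4 and 0 counts (log2 fold change 11.75, SE 0.65, adjusted p = 7.32e-05). LOC112935903 (linkage group 13, 10547007 to 10550169) had 1715 and 1838 CPM in queen libraries, against 0.184 and 1.81 CPM in forager libraries (log2 fold change 10.83, SE 0.89, adjusted p = 0.000332). Its neighbour LOC102653899 (10551323 to 10554522) had 538 and 779 CPM in queen libraries, against 0 and 6.96 CPM in forager libraries. These 2 protein-coding genes lie next to each other without overlap, and both were chosen for being high in queens. The study lists the same forward PCR primer for both, so reads of such similar genes may have been divided between them. LOC107964258, with 199.6 and 178 CPM in queen libraries, against 0.123 and 0.487 CPM in forager libraries, shares its end with the start of *Vg* in the annotation (linkage group 4, 5027696 to 5029644), so reads of the overlap could not be told apart between them. *Obp14*, an odorant binding protein, had 1261 and 1914 CPM in queen libraries, against 1.78 and 4.73 CPM in forager libraries (log2 fold change 8.94, SE 0.78, adjusted p = 0.000434). LOC100577537 had 77.2 and 77.8 CPM in queen libraries, against 0.184 and 0.209 CPM in forager libraries, and LOC100578247 had 129.8 and 145 CPM in queen libraries, against 0.491 and 0.835 CPM in forager libraries, both with replicates that nearly coincided in queens. The other 4 were LOC107963996, LOC724418, LOC102654936 and LOC411893, with log2 fold changes between 6.72 and 8.04. All 12 are protein-coding, and the sources used here name a product only for *Vg* and *Obp14*. Apart from *Vg*, calls among the 12 were lost for LOC102653899 (without queen 1 or queen 2, adjusted p up to 0.0181) and LOC107963996 (without forager 1 or forager 2, adjusted p up to 0.0172).

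**Figure D2:**
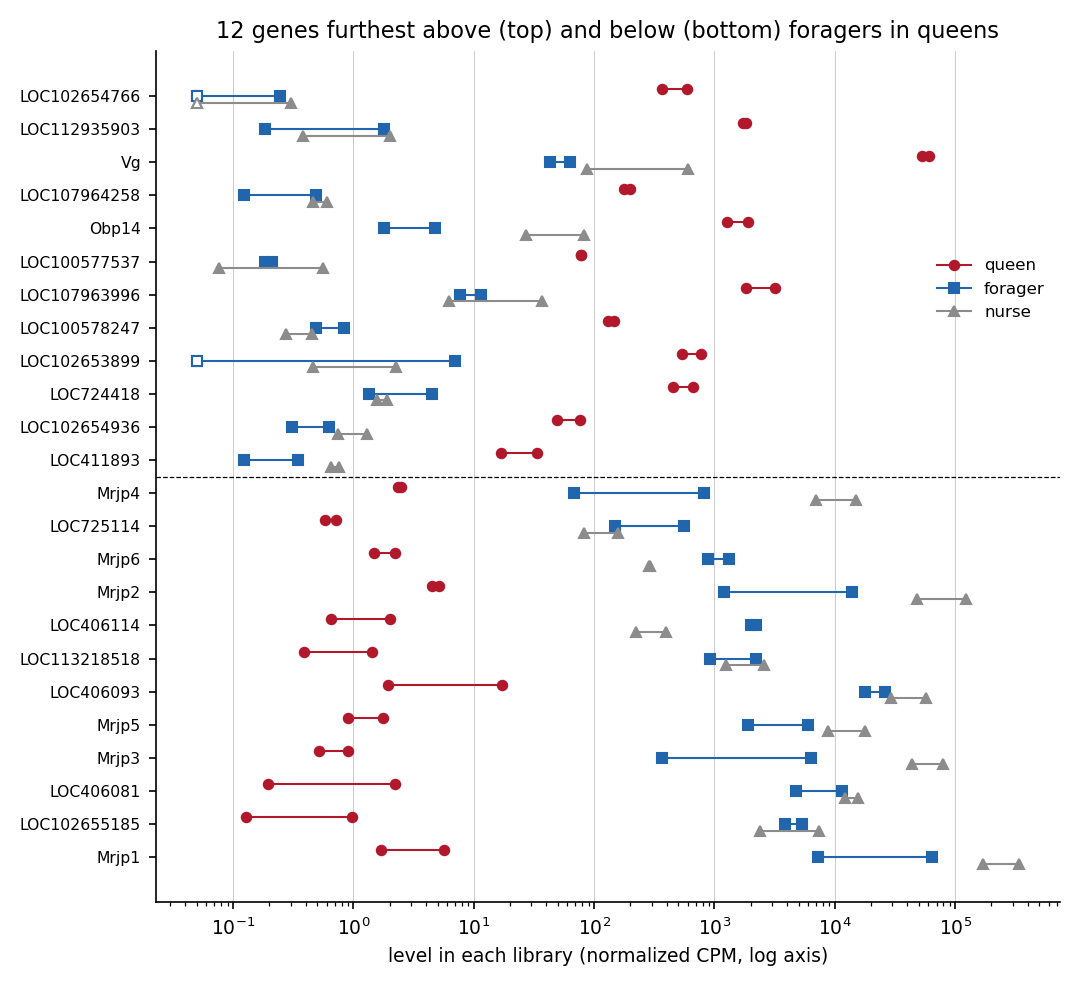
Levels of the 12 genes furthest above foragers in queens (above the dashed line) and the 12 furthest below (under it), with 1 point per library (queen red circles, forager blue squares, nurse grey triangles) in normalized CPM on a log axis. A line joins the 2 libraries of a group, and open symbols at the left edge are libraries at 0. The 24 genes were chosen among those whose queen and forager libraries do not overlap.

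Ordered by the difference in CPM instead of by fold, 7 further genes stood out in queens. LOC406105 had 7829 and 12082 CPM in queen libraries, against 55.9 and 328 CPM in forager libraries, with forager libraries that differed several-fold from each other (log2 fold change 5.70, SE 1.07, adjusted p = 0.00956). The chymotrypsin inhibitor LOC725380, which belongs to the proteins that restrain digestive and immune proteases, had 3525 and 4786 CPM in queen libraries, against 122 and 127 CPM in forager libraries (log2 fold change 5.06, SE 0.45, adjusted p = 0.000439). The inositol oxygenase LOC408650, an enzyme of inositol breakdown, had 3309 and 3868 CPM in queen libraries, against 812 and 754 CPM in forager libraries (log2 fold change 2.20, SE 0.23, adjusted p = 0.000936). LOC725074, annotated as omega-conotoxin-like protein 1, had 3098 and 3936 CPM in queen libraries, against 419.8 and 366 CPM in forager libraries, and the glucosylceramidase-like gene LOC409708, a lipid-splitting enzyme, had 3035 and 4104 CPM in queen libraries, against 254 and 472 CPM in forager libraries. In each of these genes, as in every gene called higher, both queen libraries lay above both forager libraries. LOC726625 had 2638 and 3898 CPM in queen libraries, against 70 and 112 CPM in forager libraries, and the apolipophorin gene completed the set. The call was not kept by LOC406105 (without queen 1, queen 2, forager 1 or forager 2 or with the 5 CPM filter, adjusted p up to 0.034), LOC408650 (without forager 1 or forager 2, adjusted p up to 0.0139) and LOC409708 (without queen 2, forager 1 or forager 2, adjusted p up to 0.0248).

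Genes of the immune response were higher in queens where they passed the test. Of 16 tested, 4 were higher, none was lower and 12 did not pass, with a median log2 fold change of 1.38. The lysozyme gene LOC724899, whose product cuts bacterial cell walls, had 445 and 466 CPM in queen libraries, against 25.8 and 38.6 CPM in forager libraries (log2 fold change 3.82, SE 0.33, adjusted p = 0.000397). *PGRP-S3*, a recognition protein for bacterial peptidoglycan, had 231 and 268 CPM in queen libraries, against 26.1 and 21.2 CPM in forager libraries (log2 fold change 3.39, SE 0.21, adjusted p = 9.71e-05). For both genes the libraries of a group lay close together and the groups far apart. The antimicrobial peptides abaecin (LOC406144) and apidaecin (*Apid1*) had 1692 and 937 CPM in queens and 104 and 165 CPM in foragers for abaecin, and 4305 and 2295 CPM in queens and 443 and 621 CPM in foragers for *Apid1* (log2 fold change 3.29, SE 0.42, adjusted p = 0.00221 for abaecin and log2 fold change 2.63, SE 0.37, adjusted p = 0.00334 for *Apid1*). Foragers were not the lowest group for these peptides, since nurses held 24.9 and 13.4 CPM of abaecin and 11.8 and 17.7 CPM of *Apid1*. Hymenoptaecin (LOC406142), named after its values were seen, had 3192 and 557 CPM in queen libraries, against 950.1 and 1050.2 CPM in forager libraries, so that its queen libraries differed more from each other than from foragers. *B-gluc1*, a recognition protein for beta-1,3-glucan that had been placed with the gland enzymes by its symbol, had 1328 and 1326 CPM in queen libraries, against 162 and 143 CPM in forager libraries (log2 fold change 3.12, SE 0.18, adjusted p = 7.71e-05). Calls did not survive for abaecin (without forager 1 or forager 2, adjusted p up to 0.0211) and *Apid1* (without forager 1 or forager 2, adjusted p up to 0.0291). The hemocyte marker *hml* (LOC411597) had 75.2 and 75.4 CPM in queen libraries, against 45.9 and 75.2 CPM in forager libraries. The hemocyte sums given above were higher in both queen libraries, but their largest part was the marker *Fer2LCH* (LOC551684). *Fer2LCH* had 1035 and 984 CPM in queen libraries, against 743 and 814 CPM in forager libraries, and was not called (adjusted p = 0.145). The hemocyte list also shares *PPO* with the immune list. The part of hemocytes in the immune differences was not tested.

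Of 5 genes tested of fuel hormones and insulin signalling, 3 were higher in queens, none was lower and 2 did not pass, with a median log2 fold change of 1.18. *Akhr*, the receptor through which adipokinetic hormone releases stored fuel from the fat body, had 46.5 and 49.4 CPM in queen libraries, against 6.08 and 3.48 CPM in forager libraries (log2 fold change 3.32, SE 0.31, adjusted p = 0.000589). The hormone gene itself (akh, LOC102656552) had 34.8 and 33.5 CPM in queen libraries, against 11.9 and 18.4 CPM in forager libraries (log2 fold change 1.18, SE 0.22, adjusted p = 0.00943). *ILP-2*, an insulin-like peptide, had 19 and 27.8 CPM in queen libraries, against 8.96 and 6.82 CPM in forager libraries (log2 fold change 1.56, SE 0.25, adjusted p = 0.00546). For all 3 genes, as for every gene called higher, both queen libraries lay above both forager libraries. The insulin receptor gene *InR-2* was not called, with 9.43 and 4.93 CPM in queen libraries, against 6.26 and 6.75 CPM in forager libraries. Only the call of *Akhr* held without each library. A lost call was seen for akh (without queen 1, queen 2, forager 1, nurse 1 or nurse 2, with the 5 CPM filter or with the 4 libraries alone, adjusted p up to 0.0422) and *ILP-2* (without queen 2, forager 1 or forager 2, adjusted p up to 0.0385).

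Of 14 genes of juvenile hormone and ecdysone action, 2 were higher in queens, 1 was lower and 11 did not pass, with a median log2 fold change of -0.20. *Jhe*, the esterase that breaks down juvenile hormone, had 404 and 545 CPM in queen libraries, against 9.45 and 10.7 CPM in forager libraries (log2 fold change 5.56, SE 0.48, adjusted p = 0.000409). *Cyp314a1*, which in *Drosophila* converts ecdysone into its active form, had 30.8 and 34.6 CPM in queen libraries, against 15.3 and 12.2 CPM in forager libraries (log2 fold change 1.25, SE 0.19, adjusted p = 0.00472). The gene that was lower, *HR38* (LOC551232), is a nuclear receptor of the ecdysone response that neuronal activity also induces, and it had 5.43 and 2.92 CPM in queen libraries, against 29.9 and 31.7 CPM in forager libraries (log2 fold change -2.88, SE 0.27, adjusted p = 0.00054). Nurses held 35.9 and 31.5 CPM of *HR38*, close to foragers. The juvenile hormone response gene *Kr-h1* had 51 and 29.8 CPM in queen libraries, against 82.2 and 97.7 CPM in forager libraries and did not pass (adjusted p = 0.0324). *HR38* was the sole call among 4 activity-linked genes, and the transcription factor AP-1 gene LOC726289 had 55.9 and 38.6 CPM in queen libraries, against 30.9 and 43.7 CPM in forager libraries (adjusted p = 0.317). The calls of *Jhe* and *HR38* held without each library, whereas the call was lost for *Cyp314a1* (without queen 1, queen 2, forager 1 or forager 2, adjusted p up to 0.0332).

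Carrier proteins for odorants and other small molecules moved in both directions. Of 12 odorant binding proteins tested, 3 were higher in queens, 2 were lower and 7 did not pass (median log2 fold change -0.79). Besides *Obp14*, *Obp3* had 1086 and 1928 CPM in queen libraries, against 12.6 and 22.4 CPM in forager libraries (log2 fold change 6.43, SE 0.72, adjusted p = 0.00129). *Obp4* had 307 and 500.2 CPM in queen libraries, against 87.3 and 69.3 CPM in forager libraries (log2 fold change 2.37, SE 0.25, adjusted p = 0.000981). *Obp21* and *Obp19* went the other way, with 4.33 and 2.98 CPM in queens and 22.3 and 42.3 CPM in foragers for *Obp21*, and 0.84 and 0.519 CPM in queens and 3.25 and 7.8 CPM in foragers for *Obp19*. As in every called gene, the groups did not overlap for any of the 5 genes. Of 5 chemosensory proteins, 1 was lower: *CSP6* had 18.1 and 16.5 CPM in queen libraries, against 67.5 and 79.7 CPM in forager libraries (log2 fold change -2.09, SE 0.19, adjusted p = 0.000466). *CSP3*, with 9064 and 6325 CPM in queen libraries, against 8504 and 10719 CPM in forager libraries, overlapped between the groups. Among 13 odorant and taste receptors that were expressed enough to be tested, out of 32, only the taste receptor gene *Gr10* was called, with 7.3 and 5.32 CPM in queen libraries, against 14.2 and 17.1 CPM in forager libraries (log2 fold change -1.30, SE 0.20, adjusted p = 0.00453). The threshold was no longer passed for *Obp3* (without forager 1 or forager 2, adjusted p up to 0.0148), *Obp4* (without forager 2, adjusted p up to 0.0121), *Obp21* (without queen 1, queen 2 or forager 2, adjusted p up to 0.0303), *Obp19* (without queen 1, queen 2, forager 2, nurse 1 or nurse 2 or with the 4 libraries alone, adjusted p up to 0.0588) and *Gr10* (without queen 2, forager 1 or forager 2 or with the 4 libraries alone, adjusted p up to 0.0257).

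Genes of the body surface and of chemical defence were called in both directions. Of 19 cuticle protein genes tested, 2 were higher in queens, 2 were lower and 15 did not pass, with a median log2 fold change of -0.35. *CPR14* had 922 and 1503 CPM in queen libraries, against 49 and 56.2 CPM in forager libraries (log2 fold change 4.53, SE 0.32, adjusted p = 0.000182), and *Cpap3-d* had 136 and 152 CPM in queen libraries, against 37.7 and 45.4 CPM in forager libraries (log2 fold change 1.79, SE 0.24, adjusted p = 0.0028). The apidermin *Apd-2* had 0.0646 and 0.195 CPM in queen libraries, against 5.4 and 15.9 CPM in forager libraries, and *CPR6* had 14 and 14 CPM in queen libraries, against 30 and 29 CPM in forager libraries, both lower in queens. *GstD1*, a glutathione transferase that couples toxic compounds to glutathione, had 385 and 564 CPM in queen libraries, against 67 and 43.6 CPM in forager libraries (log2 fold change 3.10, SE 0.31, adjusted p = 0.00071). Its relative *GstS1* and *MsrA*, which repairs oxidised methionine, were lower in queens, with 191 and 146 CPM in queens and 441 and 420.3 CPM in foragers for *GstS1*, and 149.8 and 111 CPM in queens and 538 and 560.2 CPM in foragers for *MsrA*. Of 10 antioxidant genes, these 3 were the only calls. *Cat* and *Sod1*, the genes of catalase and of a superoxide dismutase, did not pass (adjusted p = 0.188 and 0.0539). Of 11 cytochrome P450 genes, *Cyp314a1* above was the single call, beside 5.86% of all genes tested that were higher in queens. Calls were lost for *Cpap3-d* (without queen 2, forager 1 or forager 2, adjusted p up to 0.026), *Apd-2* (without queen 1 or queen 2, adjusted p up to 0.0193), *CPR6* (without queen 1, queen 2, forager 1 or forager 2, adjusted p up to 0.0187), *GstS1* (without queen 2, forager 1 or forager 2, adjusted p up to 0.0238) and *MsrA* (without queen 2, adjusted p up to 0.0115).

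Regulators of DNA methylation and sex were among the smaller differences. *Dnmt3*, the DNA methyltransferase that sets new methylation and whose loss in larvae favours queen development, had 44.8 and 56 CPM in queen libraries, against 13.7 and 15.9 CPM in forager libraries (log2 fold change 1.77, SE 0.17, adjusted p = 0.000597). *Dnmt1a*, which copies methylation after replication, had 24.9 and 26.7 CPM in queen libraries, against 11.5 and 10.9 CPM in forager libraries (log2 fold change 1.20, SE 0.23, adjusted p = 0.00964). The other 5 of 7 genes of DNA methylation and chromatin did not pass, among them *UHRF1* with 8.14 and 7.33 CPM in queen libraries, against 10.4 and 12 CPM in forager libraries. *Dsx*, the transcription factor doublesex at the end of the sex determination pathway, had 78.8 and 85.1 CPM in queen libraries, against 28.2 and 38.8 CPM in forager libraries (log2 fold change 1.29, SE 0.17, adjusted p = 0.00228). Its regulators *Fem* and *Csd*, and 4 further genes of germline and sex determination, did not pass. The call did not hold for *Dnmt1a* (without queen 1, queen 2, forager 1 or forager 2 or with the 5 CPM filter, adjusted p up to 0.0537) and *Dsx* (without queen 2 or forager 1, adjusted p up to 0.0153).

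Glial genes were called in both directions. *Tret1*, a trehalose transporter that in *Drosophila* serves surface glia at the blood-brain barrier, had 2766 and 2959.8 CPM in queen libraries, against 1036 and 959 CPM in forager libraries (log2 fold change 1.52, SE 0.23, adjusted p = 0.00445). *GlnS*, the glutamine synthetase of astrocytes that clears glutamate, had 1914 and 1548 CPM in queen libraries, against 4434 and 4201 CPM in forager libraries (log2 fold change -1.32, SE 0.25, adjusted p = 0.00954). *wrapper* (LOC409235), an adhesion gene of glia in *Drosophila*, had 421 and 375 CPM in queen libraries, against 752 and 903 CPM in forager libraries (log2 fold change -1.06, SE 0.20, adjusted p = 0.00927). The glial markers *Tsf1*, the iron carrier transferrin, and *Idgf4* (LOC413324), a chitinase-like protein, had 15829 and 18248 CPM in queens and 6057 and 7608 CPM in foragers for *Tsf1*, and 6311 and 5561 CPM in queens and 2771 and 3588 CPM in foragers for *Idgf4*. Both were higher in each queen library than in each forager library without passing the threshold (adjusted p = 0.0218 and 0.0415). The astrocyte marker *ebony* (LOC409109) had 399 and 236 CPM in queen libraries, against 803 and 829 CPM in forager libraries. It did not pass (adjusted p = 0.0124), whereas DESeq2 called it lower in queens (log2 fold change -1.36, adjusted p = 7.81e-06). Of the 10 glial genes, 1 was higher, 2 were lower and 7 did not pass, with a median log2 fold change of -0.27. *Eaat-2*, a transporter that removes excitatory amino acids, had 159.6 and 131 CPM in queen libraries, against 491 and 414 CPM in forager libraries (log2 fold change -1.64, SE 0.17, adjusted p = 0.000973), and its call held without each library. The call was not kept by *Tret1* (without queen 1, queen 2, forager 1 or forager 2, adjusted p up to 0.0382), *GlnS* (without queen 1, queen 2, forager 1, forager 2, nurse 1 or nurse 2 or with the 5 CPM filter, adjusted p up to 0.0681) and *wrapper* (without queen 1, queen 2, forager 1, forager 2 or nurse 1 or with the 5 CPM filter, adjusted p up to 0.0599).

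Most neuropeptide genes that passed the test were lower in queens. Of 24 tested, 6 were lower, 2 were higher (*ILP-2* and akh, above) and 16 did not pass, and the median log2 fold change was -0.70. Prohormone-2 (LOC409314) had 37 and 20.8 CPM in queen libraries, against 149 and 108 CPM in forager libraries (log2 fold change -2.15, SE 0.28, adjusted p = 0.00243). The *Ccap* gene (LOC724113), which encodes crustacean cardioactive peptide, had 2.39 and 3.44 CPM in queen libraries, against 9.94 and 12.9 CPM in forager libraries (log2 fold change -1.97, SE 0.30, adjusted p = 0.00436). Prohormone-3 (LOC726472) had 129 and 91.8 CPM in queen libraries, against 323 and 295 CPM in forager libraries (log2 fold change -1.48, SE 0.19, adjusted p = 0.00218). In these 3 genes, as in every gene called lower, no queen library reached a forager library. Nurses lay at 143 and 129.7, 5.73 and 4.93 and 277 and 259.8 CPM in the order of these genes. The other 3 that were lower were prohormone-4 (LOC409241), orcokinin (LOC726294) and SIFamide (LOC100578023), with log2 fold changes of -1.03, -1.02 and -1.01, just past the limit of 1. Tachykinin (*Tk*) stayed inside that limit at -0.87, with an adjusted p of 0.0055. Calls did not survive for prohormone-2 (without forager 1, adjusted p up to 0.0149), *Ccap* (without queen 1, queen 2, forager 1 or forager 2, adjusted p up to 0.0296) and prohormone-3 (without queen 2, forager 1 or forager 2, adjusted p up to 0.0155). They were also lost for prohormone-4 (without queen 2, forager 1 or forager 2, adjusted p up to 0.024), orcokinin (without queen 1, queen 2, forager 1 or forager 2, adjusted p up to 0.0315) and SIFamide (without queen 1, queen 2, forager 1, forager 2 or nurse 1, adjusted p up to 0.0434). No call of a neuropeptide gene, in either direction, held without each library.

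Transmitter receptors and the enzymes that end transmission were lower in queens where they were called. Of 29 genes of fast transmission, 4 were lower, none was higher and 25 did not pass, with a median log2 fold change of -0.64. *nAChRa9*, a nicotinic acetylcholine receptor subunit, had 9.95 and 6.42 CPM in queen libraries, against 40.4 and 42 CPM in forager libraries (log2 fold change -2.33, SE 0.31, adjusted p = 0.00258). *GluCl*, a chloride channel opened by glutamate, had 72.4 and 49.4 CPM in queen libraries, against 211 and 215 CPM in forager libraries (log2 fold change -1.81, SE 0.22, adjusted p = 0.00181). *AChE-2*, the enzyme that breaks down acetylcholine, had 137 and 109.9 CPM in queen libraries, against 242 and 280.1 CPM in forager libraries (log2 fold change -1.08, SE 0.20, adjusted p = 0.00868). With *Eaat-2* these were the 4 calls, and in each, as in every called gene, the groups did not overlap. Of 19 monoamine genes only *TyrR*, a tyramine receptor, was called, with 21.6 and 17.3 CPM in queen libraries, against 73.6 and 43 CPM in forager libraries (log2 fold change -1.58, SE 0.28, adjusted p = 0.0073). The dopamine receptor gene *DopR2* and the octopamine receptor gene *Oa1* had adjusted p values of 0.0113 and 0.0108 with log2 fold changes of -0.95 and -1.30. Of 16 synapse and adhesion genes, the single call was *Syt20*, a synaptotagmin, with 139 and 239 CPM in queen libraries, against 35.5 and 40.2 CPM in forager libraries (log2 fold change 2.32, SE 0.29, adjusted p = 0.0019). Since 5.86% of all genes tested were higher in queens and 2.44% lower, single calls do not set the monoamine and synapse lists apart. The kinase *Camkii*, with 418 and 315 CPM in queen libraries, against 368 and 313 CPM in forager libraries, did not pass. A lost call was seen for *nAChRa9* (without queen 2, forager 1 or forager 2, adjusted p up to 0.0182), *GluCl* (without forager 1 or forager 2, adjusted p up to 0.0119), *AChE-2* (without queen 1, queen 2, forager 1 or forager 2 or with the 5 CPM filter, adjusted p up to 0.0572), *TyrR* (without queen 1, queen 2 or forager 1, adjusted p up to 0.0515) and *Syt20* (without forager 1 or forager 2, adjusted p up to 0.0221). *elav*, the neuronal marker, had lower values in both queen libraries, as given above, and its part in the differences of transmitter and neuropeptide genes was not tested.

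Royal jelly proteins made the largest differences toward foragers. Of the 9 genes, 6 were lower in queens, none was higher and 3 did not pass, with a median log2 fold change of -9.22. Their summed level was 75.1 and 79.9 CPM in queens, against 12158 and 92990.3 CPM in foragers, and nurses held 585961 and 284891 CPM. *Mrjp1*, the most common protein of royal jelly (linkage group 11, 2274667 to 2277905), had 1.68 and 5.64 CPM in queen libraries, against 7210.4 and 64180.3 CPM in forager libraries (log2 fold change -13.25, SE 1.74, adjusted p = 0.00243). The second forager library held several times the level of the first, yet both lay far above queens. *Mrjp5* had 0.904 and 1.75 CPM in queen libraries, against 1909 and 6019.9 CPM in forager libraries (log2 fold change -11.53, SE 0.94, adjusted p = 0.000329). *Mrjp6* had 1.49 and 2.21 CPM in queen libraries, against 1323 and 881 CPM in forager libraries (log2 fold change -9.22, SE 0.35, adjusted p = 2.32e-05), the one member called that was higher in the first forager library and lower in nurses (294 and 288 CPM) than in foragers. *Mrjp8* did not share the pattern, with 48.9 and 47 CPM in queen libraries, against 21.5 and 29.8 CPM in forager libraries (adjusted p = 0.0104). *Mrjp3*, *Mrjp1*, *Mrjp4*, *Mrjp6* and *Mrjp5* follow one another on linkage group 11 (2268450 to 2298839), and reads of such close copies may have been divided among them. The calls of *Mrjp5* and *Mrjp6* held without each library. They were lost for *Mrjp1* (without queen 1 or queen 2, adjusted p up to 0.0207), *Mrjp2* (without queen 1 or queen 2, adjusted p up to 0.0339), *Mrjp3* (without queen 1 or queen 2, adjusted p up to 0.0314) and *Mrjp4* (without queen 1 or queen 2, adjusted p up to 0.0516).

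The genes that stood furthest below foragers beside the royal jelly proteins had no product named in the sources used here. LOC406081 (linkage group 5, 11679274 to 11685664) had 0.194 and 2.21 CPM in queen libraries, against 4771 and 11513 CPM in forager libraries (log2 fold change -12.72, SE 1.13, adjusted p = 0.000466). LOC406093 (linkage group 6, 15024551 to 15025504) had 1.94 and 17.1 CPM in queen libraries, against 17729.9 and 26209 CPM in forager libraries (log2 fold change -11.17, SE 1.30, adjusted p = 0.00149). LOC102655185 (linkage group 1, 3212401 to 3219482) had 0.129 and 0.973 CPM in queen libraries, against 3853 and 5381 CPM in forager libraries (log2 fold change -13.01, SE 1.04, adjusted p = 0.000286). Nurses held 15550.5 and 12090.2, 57216 and 29066, and 7458 and 2371 CPM of these genes, and the second nurse library lay below both forager libraries for LOC102655185. LOC406114 (linkage group 13, 9129778 to 9132956) had 0.646 and 2.01 CPM in queen libraries, against 2204 and 2029 CPM in forager libraries (log2 fold change -10.63, SE 0.60, adjusted p = 7.71e-05). Its nurse values of 222 and 397 CPM lay below both forager libraries, but on the forager side of the midpoint (distance 2.54, adjusted p = 0.0093). *Hbg3*, the alpha-glucosidase that splits the sucrose of nectar, had 599.6 and 877 CPM in queen libraries, against 13036 and 16794 CPM in forager libraries and 1604 and 2649.6 CPM in nurses (log2 fold change -4.34, SE 0.42, adjusted p = 0.000622). Forager values were the highest for both LOC406114 and *Hbg3*, with levels of 2117 ± 124 and 14916 ± 2657 CPM (SD, n = 2). Between nurses and foragers neither gene passed the threshold, with log2 fold changes, nurse minus forager, of -2.77 (adjusted p = 0.0704) and -2.81 (adjusted p = 0.0618). LOC113218518 and LOC725114 completed the 12, with log2 fold changes of -10.74 and -9.08. The calls of these 7 genes held without each library. Royal jelly genes, used as markers of the hypopharyngeal gland, were also far higher in both forager libraries than in queens, at the levels given above. Their sum was higher in nurses than in foragers, whereas LOC406114 and *Hbg3* were lower in nurses. *Hbg3* is itself counted among the gland genes. The part of the gland in these differences was not tested.

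Lists of chaperones and energy metabolism held at most 1 call each, beside 5.86% of all genes tested higher in queens and 2.44% lower. *Hsp90*, a chaperone that folds signalling proteins, had 875 and 968 CPM in queen libraries, against 5595 and 4808 CPM in forager libraries (log2 fold change -2.50, SE 0.45, adjusted p = 0.00818). The other 5 of 6 heat shock genes did not pass, among them *Hsc70-4* with 5273 and 5752 CPM in queen libraries, against 8183 and 8762 CPM in forager libraries. *CytC*, the electron carrier cytochrome c, had 277 and 269.8 CPM in queen libraries, against 545 and 621 CPM in forager libraries (log2 fold change -1.09, SE 0.15, adjusted p = 0.00329), and the other 7 of 8 genes of oxidative phosphorylation did not pass. In glycolysis, hexokinase-1 (LOC408818) was higher in queens, with 620.0 and 751 CPM in queen libraries, against 336 and 302 CPM in forager libraries (log2 fold change 1.10, SE 0.17, adjusted p = 0.00419). The second hexokinase gene, LOC551005, had 471 and 409.6 CPM in queen libraries, against 789 and 844 CPM in forager libraries and did not pass (adjusted p = 0.133). All 4 genes of fatty acid synthesis had lower values in queens without passing, and the largest of these differences was *FAR1*, a fatty acyl reductase, with 604 and 289.8 CPM in queen libraries, against 2769.6 and 4193 CPM in forager libraries (adjusted p = 0.0158). LOC408695, a gene annotated as uncharacterized, was named by its difference in CPM, with 2488 and 2356 CPM in queen libraries, against 6449 and 6589.9 CPM in forager libraries (log2 fold change -1.43, SE 0.25, adjusted p = 0.00734). The threshold was no longer passed for *Hsp90* (without queen 1, queen 2, forager 1 or forager 2 or with the 5 CPM filter, adjusted p up to 0.0516), *CytC* (without queen 1, queen 2, forager 1 or forager 2, adjusted p up to 0.0253), hexokinase-1 (without queen 2, forager 1 or forager 2, adjusted p up to 0.0379) and LOC408695 (without queen 1, queen 2, forager 1 or forager 2, adjusted p up to 0.0542).

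**Figure D3:**
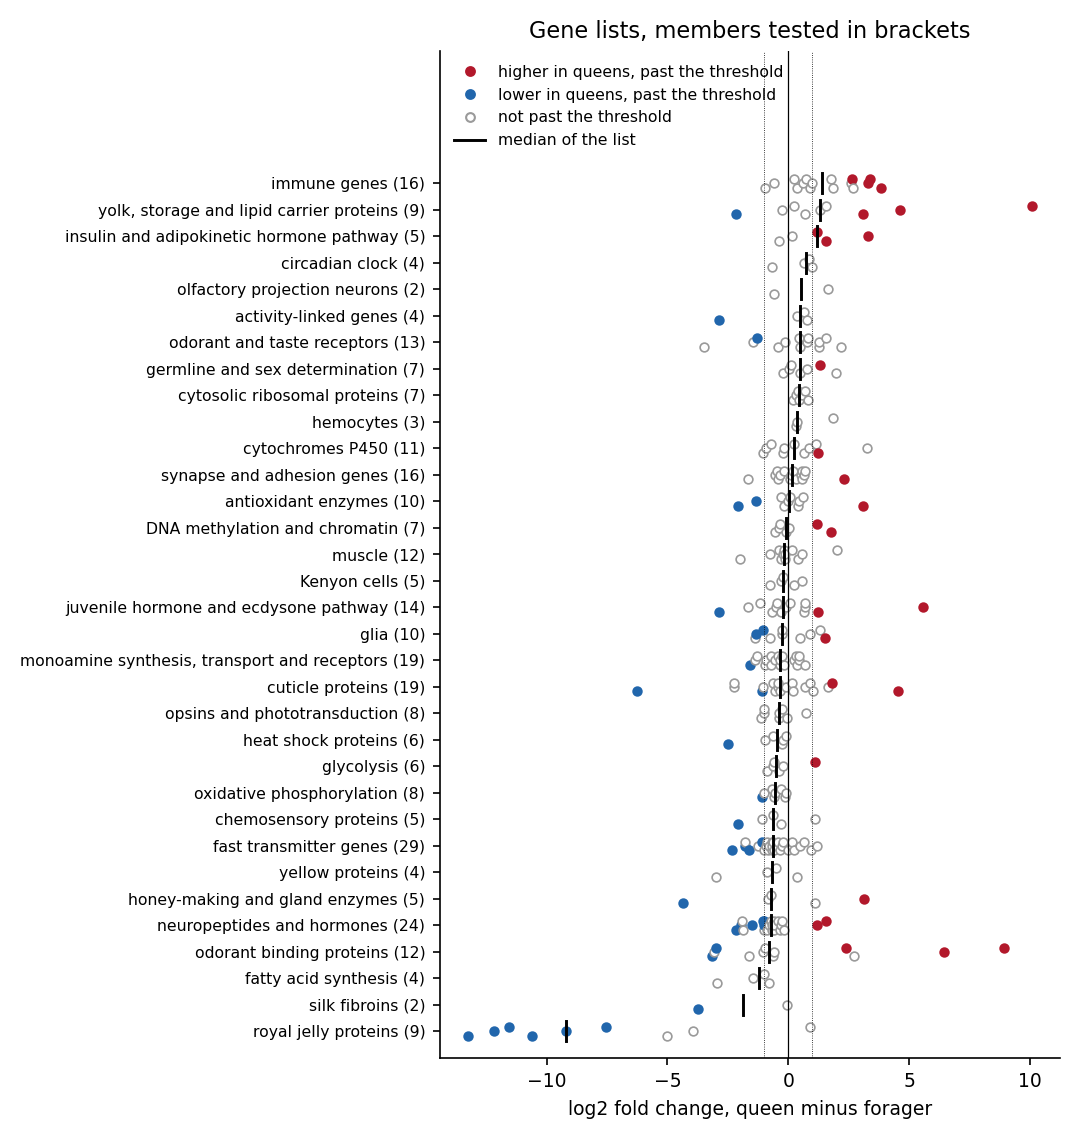
Each circle is 1 member of a gene list, placed by its log2 fold change, queen minus forager, with red and blue for members past the threshold and open grey for the rest, and a black bar at the median of each list. Lists are ordered by median, from immune genes at the top (1.38) to royal jelly proteins at the bottom (-9.22), and dotted lines mark a log2 fold change of 1 in either direction.

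Of the 34 lists, 10 gave no call. Opsins and phototransduction genes (8 tested) had no call, and long wavelength opsin *Lop1* had 749 and 662 CPM in queen libraries, against 363 and 1086 CPM in forager libraries, which overlapped. The clock genes *Per* and *Cry2* had higher values in both queen libraries, with log2 fold changes of 0.84 and 0.99, inside the limit of 1, and adjusted p of 0.00589 and 0.0143. Cytosolic ribosomal proteins (7 tested) had no call and a median of 0.43. The yellow proteins, relatives of the royal jelly proteins, had no call either, and *Y-f* had 1073 and 1023 CPM in queen libraries, against 1946 and 1908 CPM in forager libraries (adjusted p = 0.0181). Of the silk fibroins, *Fibroin4* was lower at levels of 0.129 and 0.0649 CPM in queen libraries, against 1.53 and 1.25 CPM in forager libraries, with 2 and 1 counts in queens, and the call was lost for it (without queen 1, queen 2, forager 1, forager 2, nurse 1 or nurse 2, adjusted p up to 0.0548). Olfactory projection neuron genes (2 tested) gave no call, and *oaz* (LOC413466) had 8.53 and 6.55 CPM in queen libraries, against 2.7 and 2.09 CPM in forager libraries (adjusted p = 0.0129). DESeq2, however, called *oaz* higher in queens (log2 fold change 1.66, adjusted p = 0.000322).

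Nurses were used to ask which of the 2 groups a difference set apart. For each gene the nurse level was compared with the midpoint between queens and foragers on the log2 scale, in the same fit and with the same queen and forager libraries. Of all genes tested, 1.59% lay more than 0.5 from the midpoint with an adjusted p under 0.01, 0.453% above it and 1.14% below. Among the 582 genes higher in queens, 99 did so, and in every one of these nurses lay on the side of foragers. Among the 242 lower genes, 27 did so, 26 with nurses on the side of foragers and 1 with nurses on the side of queens. By position alone, both nurse libraries lay on the forager side of the midpoint for 521 of the 582 genes and 193 of the 242. Both lay on the queen side for 24 and 19 genes. This position was counted for the called genes only, so no share over all genes tested stands beside it. It describes where the nurse libraries lay, while the midpoint test was passed by only the 99 and 27 genes above. Tested directly, queens differed from nurses in 754 genes (7.59%), and nurses from foragers in 1 (0.0101%). The count of genes past the midpoint threshold was 158 in all, against 47 without the first nurse library, 96 without the first forager library and 90 without the second.

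The exception was LOC726737 (linkage group 5, 13084874 to 13089155). It had 4.97 and 7.72 CPM in queen libraries, against 329.9 and 419 CPM in forager libraries and 11.5 and 13.9 CPM in nurses (log2 fold change -5.88, SE 0.27, adjusted p = 4.18e-05). The distance of its nurses from the midpoint was -1.94 on the log2 scale, toward queens (adjusted p = 0.0042). Foragers thus stood apart from both other groups in this gene, but the midpoint call was lost without the second forager library (adjusted p = 0.011), without the first nurse library (adjusted p = 0.0332) and without the second (adjusted p = 0.0139). It lies beside LOC726703 and *Acph-1*, which were also lower in queens, in a run from 13084874 to 13102397, and its annotation overlaps that of LOC726703. The calls were lost for LOC726703 (without queen 1, queen 2 or forager 1, adjusted p up to 0.035) and *Acph-1* (without queen 1, queen 2 or forager 2, adjusted p up to 0.023), whereas the call of LOC726737 between queens and foragers held without each library. The sources used here name no product for it. In the opposite direction the distance of nurses from the midpoint was 10.28 for *Mrjp3* (adjusted p = 0.0042) and 9.46 for *Mrjp1* (adjusted p = 0.00488). Both of these calls were lost without the first or the second queen library or the first nurse library, and that of *Mrjp1* also without the first forager library, with adjusted p up to 0.0306. *Apid1* showed the reverse order among workers, with nurses at a distance of -6.49 (adjusted p = 0.00134) and foragers between nurses and queens. The distance of *Apid1* kept its call without each library. LOC726737 was also the 1 gene past the threshold between nurses and foragers, a call lost without the first nurse library (adjusted p = 0.0186), and *Apid1* just missed that threshold with an adjusted p of 0.0105. DESeq2 called 96 genes between nurses and foragers.

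**Figure D4:**
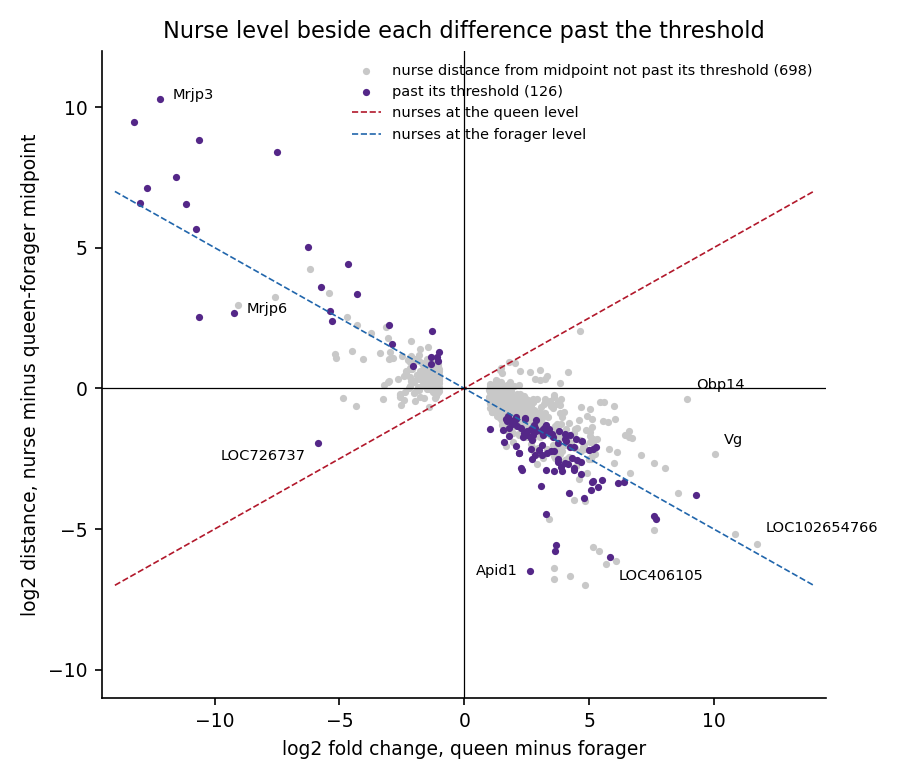
The 824 genes past the threshold, placed by their log2 fold change, queen minus forager, and by the distance of nurses from the midpoint of both groups on the log2 scale. Points on the blue dashed line have nurses at the forager level and points on the red dashed line nurses at the queen level; purple marks the 126 genes whose distance passed its own threshold, of which LOC726737 alone lies on the side of the red line.

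Dissociated cells of queens and foragers gave a second readout. UMIs, each of which marks 1 captured RNA molecule, were summed over the cells of a library, with 2 libraries per group and other libraries than in bulk, and 1326 of 11157 genes (11.9%) passed a threshold of 0.01 for the adjusted p and of 0.5 for the size of the log2 fold change. Between 126 and 217 barcodes were shared by any 2 libraries, at most 0.919% of the smaller one. Of the 582 genes higher in bulk queens, 567 were tested there, and 81 were called higher (14.3%, against 6.87% of all genes), 25 lower (4.41%, against 5.02%) and 461 had no call. Of the 242 lower genes, 236 were tested, and 57 were called lower (24.2%, against 5.02%), 7 higher (2.97%, against 6.87%) and 172 had no call. The sign was the same for 341 of 567 and 176 of 236 genes. The medians of the single-cell differences were 0.21 for the higher and -0.38 for the lower genes on the log2 scale. These counts leaned on single libraries: without the second forager single-cell library the count of calls was 72, without the first 188 and without the first queen library 321, while each nurse library left out gave 719 or 727. Of the 138 genes called in the same direction in both readouts, 23 kept the single-cell call without each library in turn.

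*Vg* was again far higher in queens, with 69 and 12.9 CPM in queens, against 1.05 and 0.524 CPM in foragers in the sums (log2 fold change 5.70, adjusted p = 0.00439), and the first queen library held several times the level of the second. *Obp14* had 21.9 and 3.74 CPM in queens, against 0.077 and 0.472 CPM in foragers (log2 fold change 5.54, adjusted p = 0.00713), with the same order of the queen libraries. LOC112935903 had 1.62 and 1.95 CPM in queens, against 0 and 0.0437 CPM in foragers (adjusted p = 0.00233), with too few UMIs in foragers for a fold. *Apid1* and abaecin had single-cell log2 fold changes of 7.74 and 6.28, larger than in bulk, and 6 of the 16 immune genes were called higher and none lower. The lysozyme gene LOC724899 was not among them, with 8.96 and 5.94 CPM in queens, against 12.3 and 38.3 CPM in foragers. Its sign was opposite to bulk, without a call (log2 fold change -1.76, adjusted p = 0.0239). *PGRP-S3* had no call either (log2 fold change 0.63, adjusted p = 0.101). Hexamerin *Hex70a* and the apolipophorin gene had no call in the sums. *Jhe*, despite its bulk difference, had 5.65 and 6.22 CPM in queens, against 9.14 and 7.67 CPM in foragers (log2 fold change -0.50, adjusted p = 0.0641), and *Akhr* had 1.66 and 1.26 CPM in queens, against 1.04 and 1.33 CPM in foragers, without a call. *HR38* and *Dnmt3* had signs opposite to bulk, also without a call. *HR38* had 243 and 227 CPM in queens, against 183 and 143 CPM in foragers (log2 fold change 0.53, adjusted p = 0.0141). *Dnmt3* had 10.1 and 9.99 CPM in queens, against 18.2 and 14.1 CPM in foragers (log2 fold change -0.68, adjusted p = 0.0379). *Tret1* had 206 and 124 CPM in queens, against 184 and 415 CPM in foragers, with no call. Royal jelly genes had few UMIs in both groups: *Mrjp1* had 0.0648 and 0 CPM in queens, against 0.625 and 0.699 CPM in foragers, and *Mrjp5* had 0.0216 and 0.0166 CPM in queens, against 0.513 and 0.874 CPM in foragers. Of 8 royal jelly genes tested in the sums, 3 were called lower and none higher, namely *Mrjp1* (adjusted p = 0.00322), *Mrjp5* (adjusted p = 0.00286) and *Mrjp6* (adjusted p = 0.00255). *CSP6*, *Eaat-2*, *GlnS*, *wrapper* and *Fabp* were lower in queens in both readouts. None of the 6 neuropeptide genes lower in bulk was called in the sums. Nor were *nAChRa9*, *GluCl*, *AChE-2* and *TyrR*, with log2 fold changes of -1.01, -0.12, -0.45 and -0.16 there. *GluCl* had 1751 and 1517 CPM in queens, against 1804 and 1747 CPM in foragers. *Dsx* and hexokinase-1 had signs opposite to bulk, without a call (log2 fold changes -0.64 and -0.85). The single-cell calls were lost for *Vg* (without forager 1 or forager 2, adjusted p up to 0.026), *Obp14* (without queen 1, forager 1, forager 2, nurse 1 or nurse 2, adjusted p up to 0.0321), *Apid1* (without forager 2, adjusted p up to 0.0103), *Mrjp1* (without forager 1 or forager 2, adjusted p up to 0.0145), *Mrjp5* (without queen 1 or forager 2, adjusted p up to 0.0158), *Mrjp6* (without forager 2, adjusted p up to 0.0168), *Eaat-2* (without queen 1, queen 2, forager 1 or forager 2, adjusted p up to 0.034), *GlnS* (without queen 1, forager 1 or forager 2, adjusted p up to 0.0198) and *wrapper* (without queen 1 or forager 2, adjusted p up to 0.0152). They held without each library for LOC112935903, abaecin, *CSP6* and *Fabp*.

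In 32 genes both readouts were called in opposite directions, 25 of them higher in queens in bulk and lower in the sums. The largest in the sums was inositol oxygenase LOC408650, with 3309 and 3868 CPM in queen libraries, against 812 and 754 CPM in forager libraries in bulk and 26.5 and 29.9 CPM in queens, against 156 and 380.2 CPM in foragers in the sums (log2 fold change -3.25, adjusted p = 0.00322). *Glob1*, a globin that binds oxygen, was another, with 227 and 224 CPM in queen libraries, against 71.9 and 91.5 CPM in forager libraries in bulk, and 3.66 and 3.44 CPM in queens, against 7.25 and 6.79 CPM in foragers in the sums. LOC724552 went the other way, with 17.7 and 18.4 CPM in queen libraries, against 385 and 425 CPM in forager libraries in bulk, and 13.8 and 11.5 CPM in queens, against 5.12 and 4.97 CPM in foragers in the sums. The last 2 were named after their values were seen, and their bulk calls were lost for *Glob1* (without forager 1, adjusted p up to 0.0103) and LOC724552 (without queen 1, queen 2, forager 1 or forager 2, adjusted p up to 0.0534). In none of the 32 genes did the single-cell call hold without each library in turn. For LOC408650 it was lost without the first queen library (adjusted p = 0.0167). An overlap with another gene was annotated for 15 of the 32, and for 44.3% of all called genes and 40.6% of genes tested. The strand setting of the bulk counting is not given in the sources used here, so reads of overlapping genes could not be told apart. The single-cell libraries hold 3' ends of cells that survived dissociation, and the bulk libraries hold RNA of the whole dissected tissue, so the readouts differ in the RNA they sample.

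**Figure D5:**
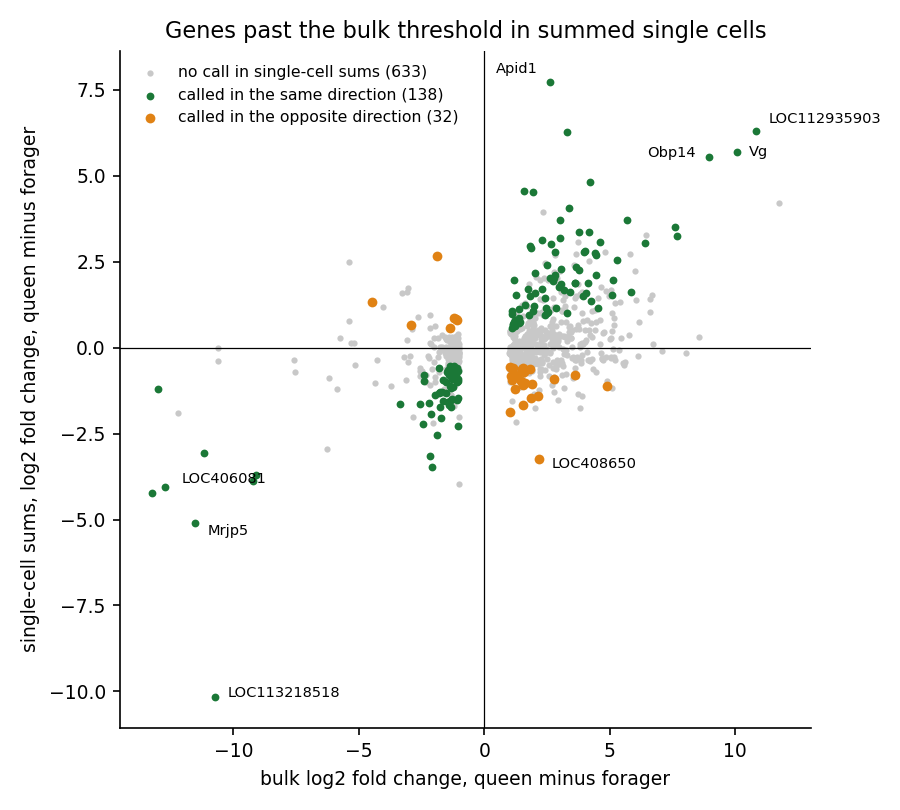
Genes past the bulk threshold that were also tested in summed single cells, with the bulk log2 fold change on the horizontal and the single-cell one on the vertical axis, both queen minus forager. Green points (138) were called in the same direction, orange points (32) in the opposite direction and grey points (633) had no single-cell call; LOC113218518 had no UMI in queens, so its vertical position depends on the prior count and is no measured fold.

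The called genes also shared features of the annotation. Long noncoding RNAs made up 82 of the 582 genes higher in queens and 7 of the 242 lower. Of 920 such genes tested, 8.91% were higher and 0.761% lower in queens, against 5.55% and 2.61% of 8996 protein-coding genes. The longest run of neighbouring genes with the same call held 7 genes on linkage group 16, from 4734595 to 4775589, all higher in queens. It consisted of 4 long noncoding RNAs and 3 protein-coding genes, with log2 fold changes between 1.53 for LOC100577163 and 8.04 for LOC107963996. LOC107963996 had 1839.5 and 3196 CPM in queen libraries, against 7.67 and 11.5 CPM in forager libraries, and LOC100577163 had 478 and 581 CPM in queen libraries, against 179 and 188 CPM in forager libraries. The calls of both were lost without the first or the second forager library, and that of LOC100577163 also without the second queen library (adjusted p up to 0.0172 and 0.0258). All 7 lie within the span of LOC410649, whose own level was 45.4 and 34.7 CPM in queen libraries, against 41.6 and 42 CPM in forager libraries and did not pass (log2 fold change -0.062). A run of 4 genes higher in queens lay on linkage group 1 (14178115 to 14216414), and the royal jelly run on linkage group 11 was the longest in the direction of foragers.

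Neighbours were also called in opposite directions. On linkage group 15 the chymotrypsin inhibitor LOC725380 (5675698 to 5677035) was higher in queens at the values given above, and LOC113218518 (5677334 to 5677995), which follows it, was lower, with 0.388 and 1.43 CPM in queen libraries, against 919 and 2219 CPM in forager libraries. Both overlap LOC102653594 in the annotation. On linkage group 6 LOC406093, lower in queens, is followed by the glucosylceramidase-like LOC409708 (15027175 to 15035893), higher in queens. In both places, genes next to each other thus had their high libraries in opposite groups.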

How the data were processed

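For the bulk libraries the authors isolated RNA from 5 pooled brains, selected mRNA with oligo(dT), sequenced it in pairs, trimmed reads with Trimmomatic 0.39, aligned them with STAR to Amel_HAv3.1 and quantified genes with RSEM. The deposited values are expected counts per gene, not scaled for depth, which were rounded to whole numbers here. Strand settings of this counting are not given in the sources used here. For the single cells the authors deposited UMI counts per gene and barcode from Cell Ranger 3.1.0. Cells were kept here with 200 to 5000 genes, at least 500 UMIs, under 15% mitochondrial UMIs and a total no more than 1.5 interquartile ranges above the third quartile of their caste, which left 16761 to 20988 cells a library. No doublet caller was run, and UMIs were summed per library.

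Counts were tested with edgeR 4.0.16 (R 4.3.3), by its quasi-likelihood test with TMM factors, filterByExpr and Benjamini-Hochberg adjustment. All 6 libraries of a readout entered 1 fit over the 3 castes. A call needed an adjusted p below 0.01 and a log2 fold change whose size exceeded 1 in bulk or 0.5 in the sums, or 0.5 for the distance of nurses from the midpoint. Standard errors were derived from the fold change and its F statistic. Of 11345 genes in the bulk table, 11266 were paired with a single-cell feature. The fit was tested on simulated counts. Nothing says that the pooled brains of replicate libraries came from separate colonies, so p-values measure the spread between these libraries.

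Genes named were the 12 with the largest fold and the 8 with the largest CPM difference in each direction (groups apart, mean of the higher group at least 10 CPM for the fold), up to 4 per side by distance of nurses from the midpoint, called members of 34 gene lists (up to 4 each, otherwise up to 2 of the highest level) and *Vg*. A few further list members are given with their values. The comparison and the lists were chosen with earlier results of these data known, and the lists were rewritten after the annotation had arrived without gene descriptions. Product names come from the marker tables of the study, and coordinates from RefSeq on Amel_HAv3.1. The alternatives were DESeq2 1.42.0, RLE scaling, TMM without royal jelly and the 20 top genes, no filter, a mean of at least 5 CPM, the queen and forager libraries alone, a replicate block, all deposited barcodes, and each library left out. The authors' single-cell clusters were not used, and 1 gene is not reported here.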

Additional observations from a re-analysis of the deposited data

How the results depend on the processing

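The bulk count of 824 calls (582 higher, 242 lower) stayed within 1.5 times under the other tools, scalings and filters, at 1187 with DESeq2 (821 of them shared), 827 with RLE scaling, 824 with TMM without royal jelly and top genes, 885 without a filter, 700 with a mean of at least 5 CPM and 872 with the queen and forager libraries alone. With 1 library left out it ranged from 331 to 870. Without the second queen library 87.7% of calls were higher in queens, against 70.6% with all libraries. The count of 158 genes past the midpoint threshold was 690 with DESeq2, and ranged from 47 to 132 with 1 library left out. The single-cell count of 1326 was 2220 with DESeq2, and ranged from 72 to 1373 with 1 library left out. The cause of the larger DESeq2 counts was not tested.

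Replicate numbers did not pair the samples: the correlation of deviations from the group means was -0.0187 between queens and foragers, -0.114 between queens and nurses and 0.0402 between foragers and nurses. With a replicate block the counts were 622 for queens against foragers, 112 for the midpoint and 930 for the single-cell sums. In that fit 17 of the 118 named genes lost their bulk call (adjusted p up to 0.0217), which the lists of lost calls above leave out. They were *AChE-2*, *Cyp314a1*, *Dnmt1a*, *Fibroin4*, *GlnS*, *Gr10*, *Hsp90*, *ILP-2*, akh, LOC406105, LOC408695, *wrapper*, *Ccap*, *Mrjp2*, *Mrjp4*, *Obp19* and *TyrR*.

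Of 118 named genes, 78 were called, and 34 of these were called without each library and under every other alternative. No called gene changed sign. Of genes without a call, leaving out replicate 1 or 2 of queens gave log2 fold changes of -0.12 and 0.29 for *Camkii* and of -0.39 and 0.84 for *Y-e3*. Leaving out replicate 1 or 2 of foragers gave 0.22 and -0.50 for LOC409843, -0.82 and 0.62 for LOC550791, and -0.62 and 0.96 for *Lop1*. The 6 library totals lay between 13135057 and 15177035 counts, and genes near the filter had the fewest counts behind their folds.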
